A study of Homo sapiens with 24 samples.

Results

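The oxidative stress targets of the transcription factor NRF2 and the repressor BACH1 were followed here as 10 genes, HMOX1, NQO1, GCLM, GCLC, TXNRD1, SRXN1, SLC7A11, OSGIN1, SQSTM1 and NFE2L2. They were taken by symbol from an exon count table of 60308 genes and an intron count table of 37473 genes, and all 10 were present in both. On exons, all 10 were among the 17666 genes that passed the filter on low counts. On introns, 9 of the 10 were among the 17406 genes that passed, and SRXN1 was not. The RNA came from U2OS cells, a human osteosarcoma cell line, under 4 treatments. Ctrl cells received 0.12% DMSO for 2 h, and NaAsO2 cells received 500 µM sodium arsenite, an oxidative stressor that assembles stress granules (SGs), for 60 min. RK-33 cells were given 6 µM RK-33, an inhibitor of the RNA helicase DDX3, with 1 h of pre-treatment, and Combo cells were given RK-33 and then NaAsO2 at these doses. After the nuclei had been spun out, a faster spin divided each cytoplasmic lysate into a soluble fraction and an insoluble fraction, the pellet, which is enriched in RNP granules but is not a pure preparation of them. Each of the 8 groups of treatment and fraction had 3 libraries, 24 in all. Per the study's methods the whole experiment was done 3 times for each condition, and the labels number the replicates without naming a culture or day. The p-values rest on the spread between these libraries, taken as 1 estimate per gene that all 8 groups share.

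In unstressed cells NRF2, the product of NFE2L2, is bound by KEAP1 and degraded. Oxidants and arsenic compounds modify cysteines of KEAP1, after which NRF2 accumulates, pairs with a small MAF protein and binds the antioxidant response element (ARE) of its target genes. BACH1 pairs with the same MAF proteins and represses from the same elements until haem or oxidants displace it. The targets supply glutathione (SLC7A11, GCLC, GCLM), reduce thioredoxin and oxidised peroxiredoxins (TXNRD1, SRXN1), detoxify quinones (NQO1) and break down haem (HMOX1).

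The ARE core TGACNNNGC, in which N is any base, was searched on both strands of 35116 RefSeq promoters that run from 250 bases before to 50 bases after the start site. It was found in 13.3% of them. Of the 10 genes, 8 had promoters in that set, 12 promoters in all, and 3 of these 12 held the core. The 3 promoters belong to 2 genes, GCLM, whose product is the modifier subunit of glutamate-cysteine ligase, and TXNRD1, the cytosolic thioredoxin reductase. Each match is shown with 10 bases on either side because these are the letters that NRF2 and BACH1 dimers are known to read. The core is in capitals, and the strand printed is the one on which the core reads as above. HMOX1 and SLC7A11 had no entry. A match is a description of the sequence and not a measured binding site. Bases outside this window were not searched, so a promoter without a match does not show that the gene lacks an ARE.
GCLM chr1:93909446-93909474 (GRCh38.p14, + strand, opposite to the gene): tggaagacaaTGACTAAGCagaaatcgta
TXNRD1 chr12:104215670-104215698 (GRCh38.p14, + strand, as the gene): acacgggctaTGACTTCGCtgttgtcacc
TXNRD1 chr12:104215761-104215789 (GRCh38.p14, - strand, opposite to the gene): ctgtgggaacTGACGGAGCcgaaggacgc
TXNRD1 chr12:104286920-104286948 (GRCh38.p14, - strand, opposite to the gene): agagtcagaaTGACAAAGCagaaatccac
The GCLM window lies upstream of the RefSeq start site at position 93909430. The first TXNRD1 window lies upstream of the start site at position 104215779, the second crosses that site into the first exon, and the third lies inside the gene, upstream of an internal start site at position 104287032.

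Each library held between 10968059 and 19799530 counts on exons and introns together (median 14567729). Replicate 3 of the NaAsO2 insoluble group stood apart. Its log2 CPM (counts scaled to a common library total) correlated with those of its other 2 replicates at r = 0.923 and 0.933, while replicate 3 of the Combo insoluble group reached 0.976 and 0.979 and the other 20 replicate pairs 0.982 to 0.992. RN7SL1, the abundant RNA of the signal recognition particle, held 5.79% of the exon counts in this NaAsO2 library, against 0.426% to 1.23% in the other insoluble and 7.51% to 15.5% in the soluble libraries. Values without this NaAsO2 library are given beside the results that it moved most. Some soluble libraries also differed from their partners. In RK-33 soluble replicate 3 RN7SL1 held 15.5%, against 8.42% and 9.13%. Introns held 28.4% of all counts in Combo soluble replicate 3, against 18.05% and 19.48%. That Combo library had the highest soluble introns of SLC7A11 and GCLC. The osteosarcoma markers VIM, SPARC, COL1A1, RUNX2 and ALPL were detected in every library, but COL1A2, at a median of 0.161 CPM, and TWIST1, at 0 in 19 libraries, were nearly absent. Other cell markers were low, with CDH1 at 3.58 to 7.10 CPM and EPCAM at 0.698 to 7.91 CPM. Counting used no strand option, so genes that overlap on opposite strands were not told apart by strand. Genes that overlap on the same strand cannot be told apart by strand at all. SRXN1, with 90.7% of its exon bases shared with another gene on its own strand, was measured on 23 to 147 counts per library and is uncertain. The shared part was 22.4% for SQSTM1, 21.9% for NFE2L2, 19.4% for NQO1, 9.68% for GCLC, 8.97% for SLC7A11 and 8.22% for OSGIN1, and 0% for HMOX1, GCLM and TXNRD1. All levels are shares of a library, so a rise of a gene cannot be told from a fall of the other RNA. Less RNA per cell and fewer cells cannot be told apart either. The study, scaling to added spike-in RNA, reports less cytoplasmic RNA after co-treatment than after NaAsO2 alone. Differences between Combo and NaAsO2 are therefore relative ones here.

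HMOX1 was the member with the strongest response to NaAsO2. Its exon level rose 3.72-fold in the soluble fraction and 3.46-fold in the pellet with NaAsO2 alone, and 5.29-fold and 5.88-fold when NaAsO2 was added to RK-33. SLC7A11, the cystine transporter, went the other way and fell 2-fold in the soluble fraction with NaAsO2. Introns of SQSTM1, SLC7A11, GCLC, GCLM and NQO1 were higher in Combo than in RK-33 cells, with smaller differences on their exons. Between the fractions, TXNRD1 was higher in the pellet and NQO1 and HMOX1 in the soluble fraction under all 4 treatments. That holds at an adjusted p under 0.05, which 51% to 59.6% of all genes passed. A 2-fold difference was reached by TXNRD1 after NaAsO2 and in Combo, NQO1 after NaAsO2 and HMOX1 with RK-33.

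A gene was called changed at a Benjamini-Hochberg adjusted p under 0.05 in edgeR's quasi-likelihood test and a difference of at least 2-fold, and a difference that passed the adjusted p but not the fold is given below as a value. On exons, NaAsO2 alone changed 2 of the 10 genes in the soluble fraction (HMOX1 up and SLC7A11 down), where 1.69% of all genes tested were called. It changed 2 of 10 in the insoluble fraction (HMOX1 and SRXN1, both up), where 13.8% of all genes were called. RK-33 alone changed 0 of 10 in either fraction by edgeR and by DESeq2, against 0.504% of all genes in the soluble fraction and 1.85% in the pellet. At an unadjusted p under 0.05 there were 3 and 2 members. No share of all genes was taken at the unadjusted p, here or below. At the adjusted p alone 1 and 2 members passed, against 5.19% and 13.9% of all genes. Combo against RK-33 changed HMOX1 and no other member in each fraction, against 1.99% of all genes in the soluble fraction and 2.66% in the pellet. Combo against NaAsO2 changed 0 of 10 in either fraction by both tools, against 2.43% and 3.84% of all genes, with 5 and 2 members at an unadjusted p under 0.05. At the adjusted p alone 1 and 2 members passed, against 6.42% and 13.7% of all genes. The median log2 fold change of the 10 genes was 0.19 in the soluble fraction and 0.38 in the pellet with NaAsO2 alone, beside 0.03 and -0.0033 for all genes. Comparisons with the same reference group share its libraries.

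**Figure D1:**
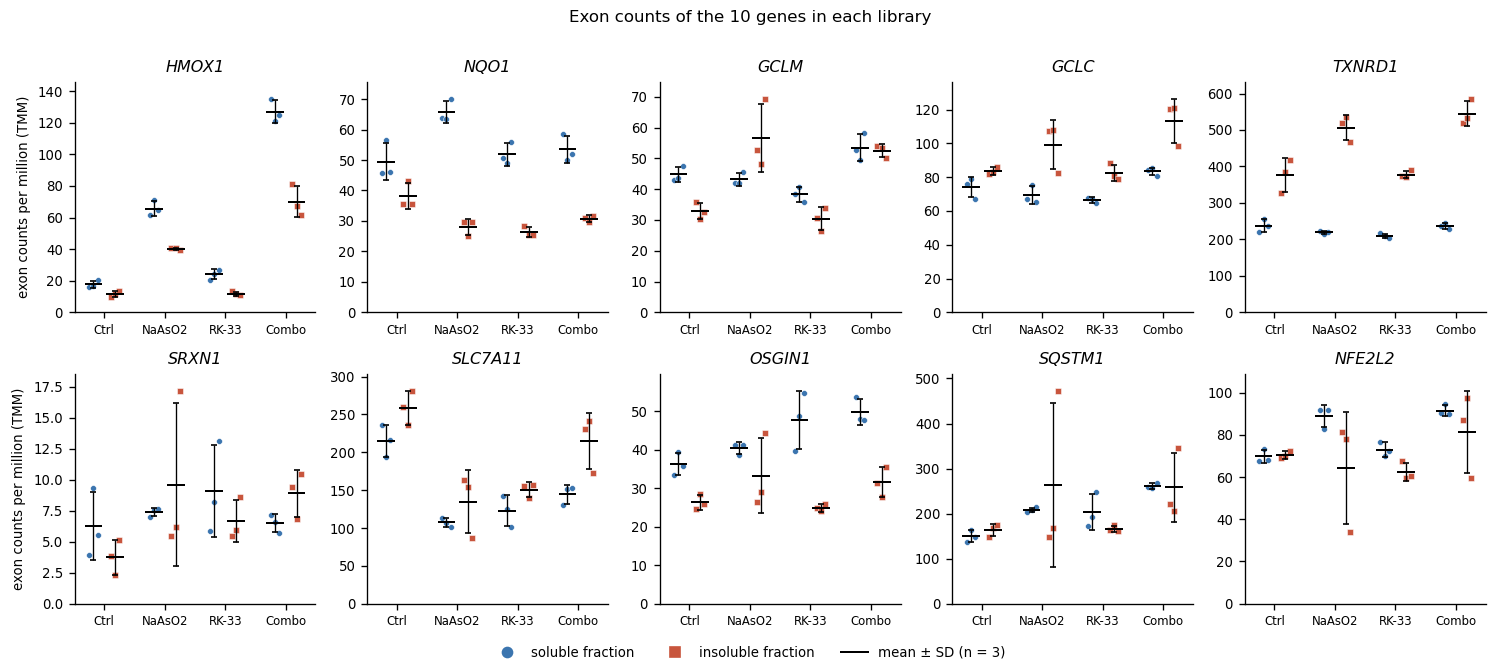
Exon CPM, scaled with TMM (edgeR's trimmed mean of M-values), of the 10 genes in each of 24 libraries, by treatment and fraction, on linear axes from 0 that differ between panels. Points are libraries and bars the mean ± SD of 3. HMOX1 stood at 61.8 CPM or more in every Combo library, and 1 NaAsO2 insoluble library lay apart from its group for SQSTM1, SRXN1, SLC7A11 and NFE2L2.

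HMOX1 (22:35380361-35394214, + strand; coordinates of genes are those of GRCh38.p13) encodes haem oxygenase 1. The enzyme degrades haem to biliverdin, iron and carbon monoxide, and the gene is a well-known target of BACH1. In the soluble fraction its exons stood at 16.4, 16.4 and 20.4 CPM in Ctrl, 61.4, 71.2 and 64.6 CPM after NaAsO2, 20.7, 24.4 and 26.9 CPM in RK-33, and 134.9, 120.9 and 125 CPM in Combo cells. In the insoluble fraction the values were 9.84, 11.3 and 13.7 CPM in Ctrl, 40.5, 40.8 and 39.5 CPM after NaAsO2, 13.3, 11.5 and 10.9 CPM in RK-33, and 81.2, 67.5 and 61.8 CPM in Combo cells. Within each fraction the NaAsO2 and Combo libraries lay above all Ctrl and RK-33 libraries, and every Combo library lay above every NaAsO2 library. The log2 fold change with NaAsO2 was 1.89 ± 0.14 (SE) in the soluble fraction and 1.79 ± 0.14 in the pellet (adjusted p = 1.3e-08 and 7.4e-09). Combo exceeded RK-33 by 2.40 ± 0.14 and 2.56 ± 0.14 (6.65e-11 and 6.75e-11). Combo exceeded NaAsO2 by 0.95 ± 0.13 in the soluble fraction and 0.80 ± 0.13 in the pellet (6.88e-05 and 0.000525), both short of 2-fold. The soluble value crossed 2-fold in fits of the compared groups alone (1.005) and with library size as the sole scaling (1.065). It also crossed in 8 of the 24 fits that left out 1 library (1.003 to 1.06), namely any Ctrl soluble replicate, RK-33 soluble replicate 1, NaAsO2 soluble replicate 2, Combo soluble replicate 3, RK-33 insoluble replicate 3 or Combo insoluble replicate 1. RK-33 alone gave 0.44 ± 0.14 (adjusted p = 0.0697) and 0.04 ± 0.15 (0.917). The NaAsO2 effect was larger with RK-33 than without it by 0.77 ± 0.20 in the insoluble fraction (adjusted p = 0.0152), and by 0.51 ± 0.19 in the soluble fraction (0.163), where the difference did not pass.

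HMOX1 introns had larger fold changes with NaAsO2 than its exons, a difference that was not tested. In the soluble fraction they stood at 9.68, 10.1 and 10.2 CPM of intron counts in Ctrl, 234.8, 241.9 and 234.2 after NaAsO2, 17.9, 25.4 and 17.6 in RK-33, and 429.6, 361.4 and 263.9 in Combo cells. In the insoluble fraction they stood at 5.42, 3.60 and 5.26 in Ctrl, 147.7, 135.2 and 186.2 after NaAsO2, 9.40, 8.29 and 11.6 in RK-33, and 183.8, 148.6 and 162.4 in Combo cells. The 4 levels were in the same order in both fractions, and NaAsO2 and Combo libraries overlapped in the insoluble but not in the soluble fraction. NaAsO2 raised the introns 23.7-fold and 32.5-fold (log2 4.57 ± 0.21 and 5.02 ± 0.22, adjusted p = 2.92e-15 and 6.5e-16). RK-33 alone gave 2.05-fold and 2.03-fold (log2 1.04 ± 0.23 and 1.02 ± 0.25, adjusted p = 0.0141 and 0.0189). The RK-33 call was lost in the soluble fraction without Ctrl replicate 1, 2 or 3 or RK-33 replicate 2 (0.84 to 1.05), and in the insoluble fraction without Ctrl replicate 2 or 3 or RK-33 replicate 3 (0.86 to 1.095). Between Combo and NaAsO2 the introns differed by 0.57 ± 0.16 in the soluble fraction (adjusted p = 0.0155) and 0.08 ± 0.16 in the insoluble fraction (0.765), whereas the exons differed in both, and the difference between the exon and intron contrasts was not tested. The NaAsO2 effect on the introns in the insoluble fraction was smaller with RK-33 than without it, by -0.94 ± 0.30 (adjusted p = 0.0361), a difference of -0.80 that did not pass (0.0679) without NaAsO2 insoluble replicate 3. Introns held 13.8% ± 1.4 (SD) of HMOX1 counts in soluble Ctrl libraries, 44.4% ± 2.5 after NaAsO2, 17.7% ± 4.9 with RK-33 and 43.4% ± 0.72 in Combo.

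SLC7A11 (4:138164097-138242349, - strand) encodes the light chain of the cystine-glutamate exchanger that brings in cystine for glutathione. In the soluble fraction its exons stood at 236.2, 193.9 and 216.5 CPM in Ctrl, 113.3, 107.2 and 101.6 after NaAsO2, 142.9, 124.9 and 101.2 in RK-33, and 130.4, 151.5 and 152.3 in Combo cells. In the insoluble fraction they stood at 259.3, 236 and 281.3 in Ctrl, 164, 154.3 and 86.7 after NaAsO2, 155.7, 139.8 and 156.7 in RK-33, and 230.9, 241.2 and 172.8 in Combo cells. All NaAsO2 and RK-33 libraries lay below all Ctrl libraries of their fraction, and insoluble Combo libraries reached into the Ctrl range. NaAsO2 lowered the soluble level by a log2 fold change of -1.01 ± 0.18 (adjusted p = 0.000841), a value at the 2-fold limit. It fell short of that limit with DESeq2 (-0.99) and without Ctrl soluble replicate 1, NaAsO2 soluble replicate 3 or RK-33 soluble replicate 3 (-0.96 to -0.999). The insoluble difference was -0.94 ± 0.18 (0.000309), which reached 2-fold without NaAsO2 insoluble replicate 1 (-1.10) or 2 (-1.05) and was -0.72 without replicate 3. RK-33 alone gave -0.81 ± 0.18 and -0.78 ± 0.18 in the soluble and insoluble fraction (0.00822 and 0.00444), short of 2-fold. With RK-33 present, the NaAsO2 effect on SLC7A11 exons was higher by 1.24 ± 0.25 in the soluble fraction and 1.45 ± 0.25 in the pellet (adjusted p = 0.01 and 0.00096).

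SLC7A11 introns were highest in Combo, unlike its exons. Soluble introns stood at 163, 150.5 and 166.4 CPM in Ctrl, 166.5, 197.7 and 172.6 after NaAsO2, 217.8, 191.1 and 151 in RK-33, and 431, 436.7 and 591.4 in Combo cells. Insoluble introns stood at 239, 248.7 and 285.7 in Ctrl, 212, 198.8 and 76.8 after NaAsO2, 354.5, 288.2 and 305.5 in RK-33, and 604.2, 641.4 and 459.6 in Combo cells. Every Combo library lay above all others of its fraction. Combo exceeded NaAsO2 by a log2 fold change of 1.44 ± 0.23 in the soluble fraction and 1.80 ± 0.23 in the pellet (adjusted p = 3.22e-05 and 8.69e-07), the latter 1.47 without NaAsO2 insoluble replicate 3. NaAsO2 alone gave 0.16 ± 0.23 in the soluble fraction (0.736), where the exons fell.

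GCLC (6:53497341-53616970, - strand) and GCLM (1:93885199-93909456, - strand) encode the catalytic and modifier subunits of glutamate-cysteine ligase, the first step of glutathione synthesis. GCLM exons in the insoluble fraction stood at 35.8, 30.3 and 32.7 CPM in Ctrl, 52.7, 48.2 and 69.2 after NaAsO2, 30.7, 26.5 and 34.0 in RK-33, and 54.0, 53.5 and 50.04 in Combo cells. All NaAsO2 and Combo libraries lay above all Ctrl and RK-33 libraries there. The difference was 0.78 ± 0.13 for NaAsO2 against Ctrl (adjusted p = 6.55e-05) and 0.79 ± 0.13 for Combo against RK-33 (0.000342), both short of 2-fold. In the soluble fraction GCLM stood at 43.1, 43.7 and 47.6 CPM in Ctrl and 41.9, 42.1 and 45.6 after NaAsO2, ranges that overlapped, with a log2 fold change of -0.05 ± 0.13 (0.824). Soluble RK-33 libraries stood at 38.4, 40.8 and 35.99 CPM and Combo libraries at 52.7, 49.4 and 58.1 CPM, which did not overlap. GCLC exons in the insoluble fraction stood at 81.7, 82.9 and 86.3 CPM in Ctrl, 107.6, 108.2 and 82.3 after NaAsO2, 88.1, 80.5 and 78.8 in RK-33, and 120.5, 120.9 and 98.5 in Combo cells. In both stressed groups replicate 3 was the lowest. Combo exceeded RK-33 by 0.46 ± 0.11 (adjusted p = 0.0138), and NaAsO2 exceeded Ctrl by 0.25 ± 0.11 (0.0766), or by 0.35 without NaAsO2 insoluble replicate 3 (0.00852). Both genes had larger differences on introns. GCLM introns exceeded RK-33 in Combo by 1.18 ± 0.16 in the soluble fraction and 1.28 ± 0.16 in the pellet (1.87e-06 and 3.14e-07). With NaAsO2 alone, soluble GCLM introns stood at 116.3, 130.8 and 135.6 CPM, against 76.5, 70.8 and 71.8 in Ctrl. In the pellet they were higher with NaAsO2 by 0.86, or by 0.998 (adjusted p = 4.73e-06) without NaAsO2 insoluble replicate 3, both short of 2-fold. Combo differed from NaAsO2 there by -0.15. GCLC introns stood at 364.1, 360.4 and 451.4 CPM in soluble Combo libraries, against 192.7, 173.9 and 154.1 CPM in RK-33 and 196.4, 223.5 and 204.6 CPM after NaAsO2. The soluble Combo introns of GCLC exceeded RK-33 by 1.17 ± 0.13 (1.15e-07), and the insoluble ones exceeded NaAsO2 by 1.07 ± 0.13 (7.87e-07), or by 0.95 without NaAsO2 insoluble replicate 3, by 0.91 without replicate 3 of both stressed groups and by 0.96 with library size as the sole scaling, each short of 2-fold.

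TXNRD1 (12:104215779-104350307, + strand), which regenerates reduced thioredoxin, was the most abundant of the 10 per kilobase of exon in 7 of 8 groups, was second to HMOX1 in soluble Combo cells, and was enriched in the pellet throughout. Its insoluble exon levels were 327.1, 384 and 418.5 CPM in Ctrl, 518.1, 534.3 and 467 after NaAsO2, 372.8, 370.3 and 389.9 in RK-33, and 518.7, 531.6 and 584.2 in Combo cells. Soluble levels ran from 204.7 to 256.4 CPM over all 12 libraries. In the pellet every NaAsO2 and Combo library lay above every Ctrl and RK-33 library, and in the soluble fraction the NaAsO2 and Ctrl libraries overlapped. The log2 difference in the pellet was 0.43 ± 0.10 for NaAsO2 against Ctrl (adjusted p = 0.00175) and 0.53 ± 0.10 for Combo against RK-33 (0.00173), short of 2-fold. In the soluble fraction it was -0.11 ± 0.10 (0.477) and 0.18 ± 0.10 (0.438). TXNRD1 introns in the pellet were lower in Combo than in RK-33 cells by -0.54 ± 0.12 (0.00067), opposite in sign to the exons.

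SRXN1 (20:646615-653200, - strand) encodes sulfiredoxin, which restores over-oxidised peroxiredoxins. In the insoluble fraction it stood at 3.83, 2.32 and 5.14 CPM in Ctrl and at 5.46, 6.16 and 17.2 CPM after NaAsO2. The groups did not overlap, and the highest value came from the library that stood apart. The log2 fold change of 1.30 ± 0.40 passed (adjusted p = 0.0126), but it was 0.60 (0.138) without NaAsO2 insoluble replicate 3, and lost its call without Ctrl insoluble replicate 2 as well (1.06, 0.0593).

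NQO1 (16:69706996-69726668, - strand), a reductase of quinones, differed from Ctrl in opposite directions in the 2 fractions after NaAsO2. Its soluble exons stood at 45.8, 56.6 and 46.0 CPM in Ctrl and at 63.9, 63.5 and 69.9 CPM after NaAsO2. Its insoluble exons stood at 35.5, 43.2 and 35.7 CPM in Ctrl, 29.7, 24.9 and 29.5 after NaAsO2, and 28.2, 25.3 and 25.3 in RK-33. Neither pair of NaAsO2 and Ctrl groups overlapped. The log2 difference of NaAsO2 from Ctrl was 0.41 ± 0.12 in the soluble fraction (adjusted p = 0.0217) and -0.44 ± 0.12 in the pellet (0.0047), and that of RK-33 from Ctrl in the pellet was -0.54 ± 0.12 (0.00346), all short of 2-fold. NQO1 introns in the pellet stood at 19.5, 22.1 and 16.01 CPM in Ctrl, 34.0, 25.7 and 78.6 after NaAsO2, 18.99, 13.7 and 19.1 in RK-33, and 48.3, 38.1 and 53.4 in Combo cells. Combo exceeded RK-33 by 1.43 ± 0.26 (8.52e-05). The call of NaAsO2 against Ctrl, at 1.25 ± 0.26 (0.000835), rested on the library that stood apart, and the value was 0.65 without it (0.0168). Combo against NaAsO2 there went from 0.03 to 0.62 (0.0138) without it. OSGIN1 (16:83931311-83966332, + strand), a stress-induced growth inhibitor, passed the adjusted p in no treatment comparison on exons. Its soluble levels were 33.5, 39.4 and 35.9 CPM in Ctrl, 39.6, 48.7 and 54.8 in RK-33, and 53.7, 48.1 and 47.6 in Combo cells, and RK-33 differed from Ctrl by 0.40 ± 0.16 (0.167). OSGIN1 introns in Combo exceeded RK-33 by 0.80 ± 0.16 and 0.93 ± 0.17 in the soluble and insoluble fraction (0.000327 and 7.47e-05), short of 2-fold.

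SQSTM1 (5:179806398-179838078, + strand) encodes p62, the autophagy receptor that binds KEAP1. On exons the soluble levels were 136.7, 163 and 148.8 CPM in Ctrl, 204.3, 207.2 and 213.8 after NaAsO2, 172.1, 191.5 and 249 in RK-33, and 258.3, 257.4 and 267.9 in Combo cells. Insoluble levels were 148, 167.7 and 473 CPM after NaAsO2 and 221.5, 205.8 and 346.7 CPM in Combo cells, against 148.1, 168.1 and 173.9 CPM in Ctrl. The soluble groups of the treated cells lay above Ctrl, while in the pellet replicate 3 of both stressed groups was far above its partners. No exon comparison of SQSTM1 between treatments passed in the fit of all libraries. All groups share its estimate of the spread, so those pellet replicates also enter the SE of the soluble tests. The soluble test is therefore a weak one, although the soluble NaAsO2 and Ctrl libraries did not overlap. NaAsO2 gave 0.48 ± 0.28 in the soluble (adjusted p = 0.264) and 0.68 ± 0.28 in the insoluble fraction (0.0527). Without NaAsO2 insoluble replicate 3 the latter was -0.07 (0.726), and Combo against NaAsO2 in the pellet went from -0.02 (0.963) to 0.72 (0.00187). On introns the gene was called changed. Soluble introns stood at 126.7, 120.7 and 121.1 CPM in Ctrl, 152.6, 170.8 and 175.9 after NaAsO2, 188.1, 226.9 and 257.3 in RK-33, and 658.4, 652.2 and 634.8 in Combo cells. The 4 groups did not overlap. Combo exceeded NaAsO2 by 1.96 ± 0.16 (7.26e-10) and RK-33 by 1.53 ± 0.16 (2.23e-08), and in the pellet by 1.64 ± 0.16 (1.5e-08) and 1.41 ± 0.16 (6.89e-08). RK-33 alone gave 1.13 ± 0.16 in the pellet (4.16e-05) and 0.86 ± 0.16 in the soluble fraction (0.00256), the latter short of 2-fold.

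NFE2L2 (2:177227595-177392697, - strand), the gene of NRF2 itself, passed in no treatment comparison on exons or introns in the fit of all libraries, and its introns in insoluble Combo against NaAsO2 went from 0.26 to 0.34 (adjusted p = 0.0493) without NaAsO2 insoluble replicate 3. Its soluble exons stood at 67.8, 73.3 and 68.1 CPM in Ctrl, 91.9, 82.7 and 91.8 after NaAsO2, 76.8, 69.8 and 72.4 in RK-33, and 90.3, 94.4 and 89.7 in Combo cells. The stressed libraries lay above the others, and the log2 fold change with NaAsO2 was 0.35 ± 0.21 (adjusted p = 0.268). The SE comes from a spread shared with the pellet libraries, in which replicate 3 of both stressed groups lay low. It is therefore a weak test of the soluble difference. Insoluble levels were 81.5, 77.9 and 33.8 CPM after NaAsO2 and 87.1, 97.5 and 59.8 in Combo cells, with replicate 3 the lowest in both.

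**Figure D2:**
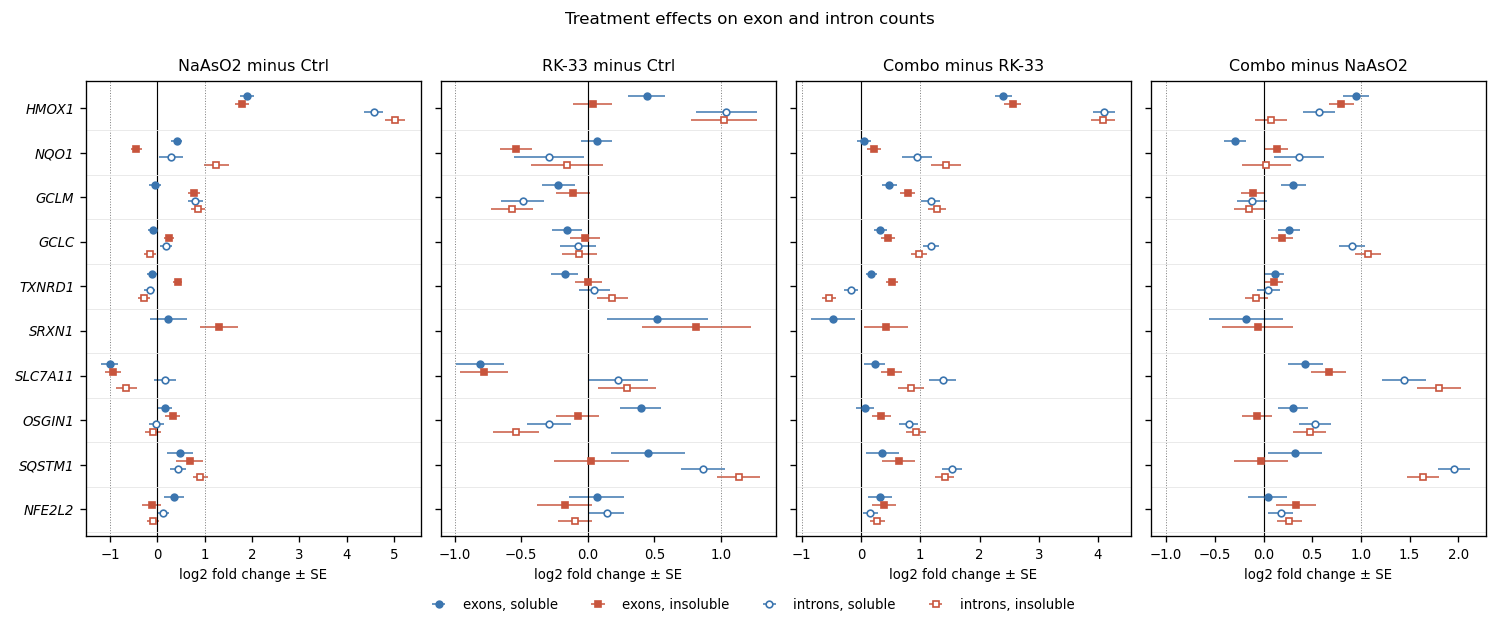
Log2 fold changes (± SE) of exon counts (filled) and intron counts (open) of the 10 genes for 4 treatment comparisons, in the soluble (circles) and insoluble (squares) fraction, from edgeR over 24 libraries. The dotted lines mark 2-fold, the horizontal axes differ between panels, and SRXN1 has no intron value. HMOX1 introns reached 5.02 with NaAsO2, and intron effects of SQSTM1 and SLC7A11 in Combo exceeded their exon effects.

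Across the 9 members tested on introns, NaAsO2 alone changed 1 in the soluble fraction (HMOX1), where 2.5% of all genes were called, and 2 in the insoluble fraction (HMOX1 and NQO1), where 13.9% were called. RK-33 alone changed 1 (HMOX1) against 0.666% and 2 (HMOX1 and SQSTM1) against 0.908% of all genes. Combo against RK-33 raised 5 of 9 in the soluble fraction (HMOX1, GCLM, GCLC, SLC7A11 and SQSTM1), where 13% of all genes were called, and 4 of 9 in the insoluble fraction (HMOX1, NQO1, GCLM and SQSTM1), where 14.4% were called. Combo against NaAsO2 raised SLC7A11 and SQSTM1 in both fractions and GCLC in the insoluble one, which is 2 of 9 against 6.26% and 3 of 9 against 10.3% of all genes. The median log2 fold change of the 9 genes for Combo against RK-33 was 1.17 in the soluble fraction and 0.98 in the pellet, beside 0.02 and 0.06 for all genes. The direct comparison of the NaAsO2 effect with and without RK-33 called SLC7A11 and SQSTM1 in the soluble fraction (2 of 9, against 2.63% of all genes) and GCLC, SLC7A11 and OSGIN1 in the insoluble fraction (3 of 9, against 7.14%), all higher with RK-33. On exons it called SLC7A11 alone in each fraction, 1 of 10 against 0.968% and 3.95% of all genes. The soluble intron call of SLC7A11, at 1.22 ± 0.32 (adjusted p = 0.0263), was lost in 7 of the 24 fits without 1 library (1.05 to 1.23), namely soluble NaAsO2 replicate 1 or 3, Ctrl replicate 1 or 3, RK-33 replicate 2 or 3 or Combo replicate 3. That of SQSTM1, at 1.10 ± 0.23 (0.00439), was 0.98 without RK-33 soluble replicate 1. The insoluble call of OSGIN1, at 1.01 ± 0.24 (0.00643), was lost in 6 of 24 fits (0.90 to 0.99), without insoluble NaAsO2 replicate 1 or 2, Ctrl replicate 1, RK-33 replicate 1 or 3 or Combo replicate 3. That of GCLC, at 1.14, was lost without replicate 3 of both the NaAsO2 and the Combo insoluble group (0.97). Without NaAsO2 insoluble replicate 3 alone, the insoluble NaAsO2 effect was higher with RK-33 for SQSTM1 by 0.70 on exons (adjusted p = 0.0162, against -0.05 with all libraries) and 0.74 on introns (0.0104, against 0.51), and for NQO1 introns by 0.78 (0.0454, against 0.19), all short of 2-fold. In the soluble fraction the introns' share of all counts was 17.7% to 22.3% in soluble Ctrl, 13.7% to 18.9% in NaAsO2, 13.3% to 22.6% in RK-33 and 18.1% to 28.4% in Combo libraries. NEAT1, a nuclear RNA, stood at 394 to 563, 285 to 384, 421 to 515 and 551 to 725 CPM in the same groups. In the insoluble fraction the intron share was 30.5% to 36.3%, 17.2% to 24.4%, 34.8% to 37.5% and 22.3% to 30.2%, and NEAT1 stood at 1561 to 1935, 837 to 1008, 1815 to 3406 and 1219 to 1559 CPM. KCNQ1OT1, another nuclear RNA, stood at 15.4 to 17.4, 13.7 to 15.5, 14.4 to 15.4 and 31.9 to 77.3 CPM in the soluble groups and at 51.9 to 57.9, 26.9 to 45.15, 61.05 to 69.9 and 114 to 151 CPM in those of the pellet. MALAT1, also nuclear, stood at 10700 to 15080, 5983 to 8229, 7692 to 12220 and 8460 to 11070 CPM in the soluble groups and at 5250 to 6930, 1332 to 2472, 4041 to 4741 and 4047 to 4525 CPM in the pellet. The 4 measures did not move alike. KCNQ1OT1 was higher in every Combo library than in every other library of its fraction, whereas MALAT1 reached furthest in Ctrl in both fractions. The intron share and NEAT1 reached furthest in Combo among the soluble groups but were lower in Combo than in RK-33 cells in the pellet. There the introns of 7 of the 9 members were higher and those of 1 were lower in Combo than in RK-33 cells at the adjusted p alone, which 29.8% of all genes passed. The part of these RNAs in the intron results was not tested.

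**Figure D3:**
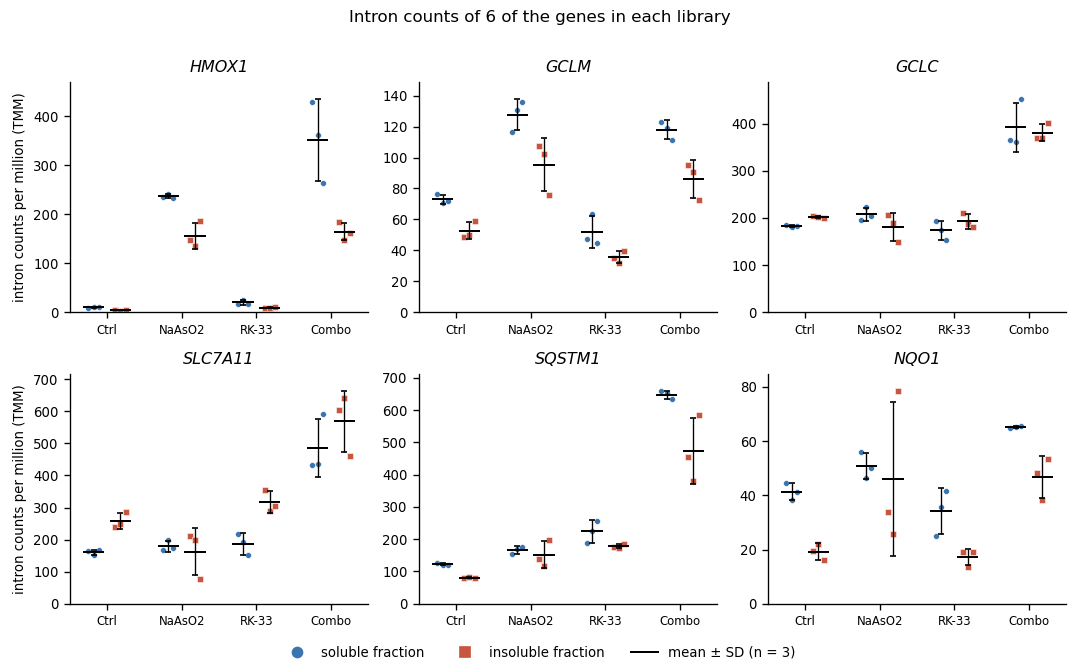
Intron CPM (TMM) of 6 of the genes in each of 24 libraries, by treatment and fraction, on linear axes from 0 that differ between panels, with the mean ± SD of 3 libraries. Combo libraries of SQSTM1 and SLC7A11 lay above all others of their fraction, at 381 CPM or more for SQSTM1.

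The comparison of the pellet with the soluble fraction asks which transcripts are associated with RNP granules. On exons it called 0 of 10 members in Ctrl by edgeR and by DESeq2, with 5 at an unadjusted p under 0.05, where 22.5% of all genes were called. At the adjusted p alone 5 of 10 members passed in Ctrl, near the 51% of all genes. The comparison called 2 of 10 after NaAsO2 (TXNRD1 up and NQO1 down), against 30.6% of all genes. With RK-33 it called HMOX1 (1 of 10, down, against 30.8%), and in Combo TXNRD1 (1 of 10, up, against 23.1%). TXNRD1 was higher in the pellet by 0.67 ± 0.10 in Ctrl, 1.21 ± 0.10 after NaAsO2, 0.85 ± 0.10 with RK-33 and 1.198 ± 0.10 in Combo (adjusted p = 1.03e-05, 8.51e-10, 2.8e-07 and 2.26e-09). NQO1 was lower there, at -0.38 ± 0.12, -1.23 ± 0.12, -0.98 ± 0.12 and -0.80 ± 0.12 (0.0104, 7.71e-09, 3.49e-07 and 5.19e-06). HMOX1 was lower, at -0.60 ± 0.15, -0.71 ± 0.13, -1.01 ± 0.14 and -0.86 ± 0.13 (0.00156, 9.09e-05, 3.09e-06 and 9.61e-06). Its call with RK-33 lay at the 2-fold limit and was lost without RK-33 soluble replicate 2 or 3 or RK-33 insoluble replicate 2 or 3 (-0.93 to -0.998). NQO1 with RK-33 passed the limit in 13 of the 24 fits without 1 library (-1.0045 to -1.08), those without any Ctrl soluble replicate, RK-33 soluble replicate 1 or 2, NaAsO2 soluble replicate 2, Combo soluble replicate 1 or 3, Ctrl insoluble replicate 2, RK-33 insoluble replicate 1 or 3 or Combo insoluble replicate 1 or 2. GCLM was lower in the pellet in Ctrl, at -0.44 ± 0.13, and higher after NaAsO2, at 0.39 ± 0.13 (0.00598 and 0.0113), although the latter was 0.19 (0.14) without NaAsO2 insoluble replicate 3. GCLC was higher in the pellet after NaAsO2, with RK-33 and in Combo, by 0.52 ± 0.11, 0.31 ± 0.11 and 0.44 ± 0.11 (0.000463, 0.0212 and 0.00219), and OSGIN1 was lower in Ctrl, with RK-33 and in Combo, by -0.46 ± 0.16, -0.94 ± 0.16 and -0.66 ± 0.15 (0.0183, 2.83e-05 and 0.00116). OSGIN1 passed 2-fold with RK-33 without RK-33 soluble replicate 1 (-1.10) or insoluble replicate 3 (-1.02), and HMOX1 in Combo without Combo insoluble replicate 1 (-1.01). SLC7A11 was higher in the pellet in Combo, by 0.57 ± 0.18 (0.00974). SQSTM1, NFE2L2 and SRXN1 passed under none of the 4 treatments, although SRXN1 reached -1.05 (0.047) in Ctrl without Ctrl soluble replicate 1. In the fit without NaAsO2 insoluble replicate 3, SQSTM1 was lower in the pellet after NaAsO2 by -0.43 (0.014, against 0.33 with all libraries) and with RK-33 by -0.305 (0.0441), OSGIN1 was lower after NaAsO2 by -0.58 (0.00023, against -0.29), and SLC7A11 was higher after NaAsO2 by 0.54 (0.00102, against 0.33) and with RK-33 by 0.28 (0.0416).

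The shift of the fraction effect between NaAsO2 and Ctrl was tested directly. It called 0 of 10 members by edgeR and by DESeq2, against 9.53% of all genes, with 4 members at an unadjusted p under 0.05. At the adjusted p alone 3 of 10 members passed, against 22.3% of all genes. NQO1 shifted away from the pellet by -0.86 ± 0.17 (adjusted p = 0.000735), and GCLM and TXNRD1 shifted into it by 0.83 ± 0.18 (0.00183) and 0.54 ± 0.14 (0.00769), all short of 2-fold. Without NaAsO2 insoluble replicate 3 GCLM was at 0.64, SQSTM1 turned from 0.20 to -0.56 (0.0372) and GCLC went from 0.34 to 0.43 (0.021). Between Combo and NaAsO2 the shift called 0 of 10 by both tools, against 0.147% of all genes, with 2 members at an unadjusted p under 0.05. At the adjusted p alone 0 members passed, against 0.368% of all genes. HMOX1 gave -0.10 ± 0.20 (0.745) for NaAsO2 against Ctrl and -0.15 ± 0.19 (0.745) for Combo against NaAsO2.

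**Figure D4:**
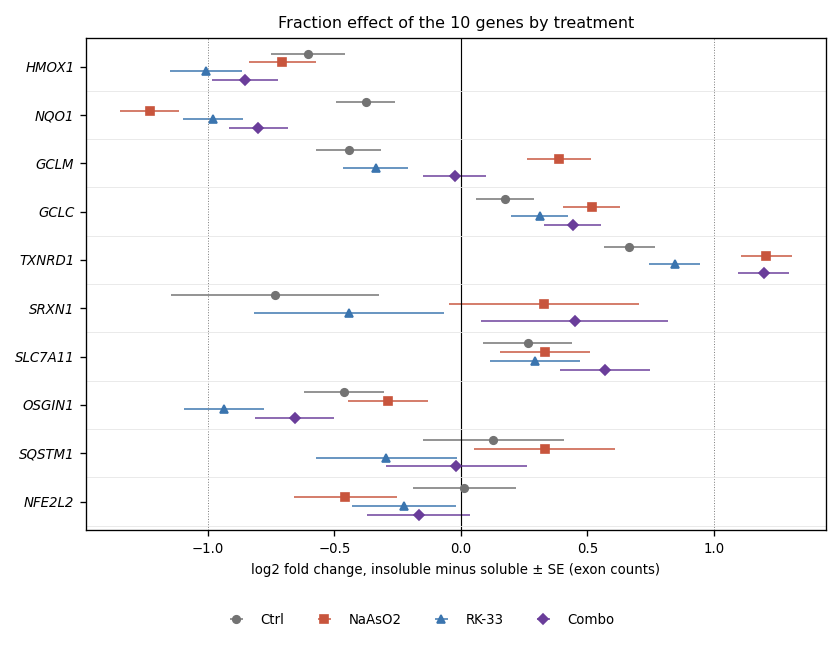
Log2 fold change (± SE) of exon counts between the insoluble and the soluble fraction for the 10 genes, by treatment, with 3 libraries in each group. Dotted lines mark 2-fold. TXNRD1 lay to the right of 0 under all 4 treatments and HMOX1 and NQO1 to the left, and GCLM changed sign between Ctrl and NaAsO2.

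Per kilobase of exon, the order in soluble Ctrl libraries was TXNRD1 at 35.4 ± 2.7 CPM (SD, n = 3), SLC7A11 at 22.3 ± 2.2, SQSTM1 at 19.8 ± 1.7, NQO1 at 16.7 ± 2.1, NFE2L2 at 12.3 ± 0.55, GCLC at 8.60 ± 0.70, GCLM at 8.25 ± 0.45, HMOX1 at 7.68 ± 0.99, OSGIN1 at 6.52 ± 0.53 and SRXN1 at 2.48 ± 1.1. The libraries of SLC7A11 and SQSTM1, SQSTM1 and NQO1, GCLC and GCLM, and GCLM and HMOX1 overlapped, and the other neighbours did not. In soluble Combo libraries HMOX1 was first, at 55.1 ± 3.1 CPM per kilobase, ahead of TXNRD1 at 35.4 ± 1.2, and SLC7A11 was sixth. The gene lengths are the summed exon bases of all annotated transcripts, which can be longer than the isoform expressed. They include bases shared with other genes, a part that differs between the members and is 90.7% for SRXN1, so its last place is uncertain.

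A list of 35 other NRF2 and BACH1 targets, of which 31 were tested on exons and 27 on introns, gave few exon changes with treatment. NaAsO2 alone raised 0 and lowered 0 of the 31 in the soluble fraction by edgeR, against 1.69% of all genes called. At the adjusted p alone 7 were higher and 1 was lower there, against 13% of all genes. In the insoluble fraction it raised 2 and lowered 3, against 13.8% of all genes called. The median log2 fold changes were 0.32 and -0.05, beside 0.03 and -0.0033 for all genes. MAFG, a small MAF partner of NRF2 and BACH1 that is in the list of regulators as well, rose in the pellet by 1.51 ± 0.19 (adjusted p = 4.56e-06), or by 1.07 without NaAsO2 insoluble replicate 3, and SESN2, a stress-induced sestrin, rose by 1.24 ± 0.21 (0.000114), or by 0.72, short of 2-fold, without it. TKT and EPHX1 fell, with log2 fold changes of -1.01 ± 0.12 and -1.05 ± 0.14 (2.58e-06 and 9.16e-06), both near the 2-fold limit, which they missed in 14 and 10 of the 24 fits without 1 library (reaching -0.96 and -0.97), and GPX2, at 1.18 CPM after NaAsO2, fell, at -1.54 ± 0.36 (0.00187). On introns NaAsO2 raised FTL and FTH1, the ferritin chains, by 2.29 ± 0.21 and 1.90 ± 0.19 in the soluble fraction (1.36e-08 and 7.17e-08), in which 2 of 27 rose and 1, TXN, fell, against 2.5% of all genes called. In Combo against RK-33, 8 of the 27 rose on introns and 1 fell in each fraction, against 13% of all genes called in the soluble fraction and 14.4% in the pellet, among them SESN2 by 2.19 ± 0.20 and EPHX1 by 1.48 ± 0.18 in the soluble fraction (1.45e-09 and 3.46e-07). FTL and FTH1 have many processed copies in the genome, so their counts are uncertain. On exons, 6 of the 31 were lower and 1 was higher in the pellet of Ctrl cells and 13 were lower and 1 higher after NaAsO2, against 22.5% and 30.6% of all genes called, led by TXN, FTL and FTH1 at -2.003, -2.09 and -2.16 in Ctrl. The median of the list was -0.31 in Ctrl and -0.86 after NaAsO2.

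Of 16 regulators of NRF2 and BACH1 activity, all were tested on exons and 15 on introns. On exons 0 changed in the soluble fraction with NaAsO2 by edgeR, against 1.69% of all genes called. At the adjusted p alone 3 were higher and 2 lower, against 13% of all genes. In the insoluble fraction 3 of the 16 were called higher and 0 lower, against 13.8% of all genes called. They were the small MAF genes MAFG, MAFF and MAFK, the last 2 higher by 1.33 ± 0.20 and 1.29 ± 0.27 (adjusted p = 2.4e-05 and 0.000631). Without NaAsO2 insoluble replicate 3 these were 0.96 and 0.58, short of 2-fold. BACH1 was higher in the pellet than in the soluble fraction by 1.28 ± 0.23 after NaAsO2, 1.02 ± 0.23 with RK-33 and 1.15 ± 0.23 in Combo (4.72e-05, 0.000569 and 0.000189), the value with RK-33 falling to 0.90 and that in Combo to 0.97 in fits without 1 library. RBX1, part of the ligase that marks NRF2 for degradation, was lower in the pellet under all 4 treatments, at -1.09 ± 0.14 in Ctrl and -2.01 ± 0.14 after NaAsO2 (9.37e-07 and 4.35e-11). NFE2L3, a relative of NRF2, was higher in Combo than in RK-33 by 3.37 ± 0.48 and than in NaAsO2 by 2.19 ± 0.45 in the soluble fraction (9.36e-05 and 0.00387), where its level in Combo was 34.6 ± 16 CPM (SD, n = 3).

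Over the 8 group means of log2 CPM, with a pseudocount of 1, the patterns most like that of HMOX1 among the 10271 other genes whose mean reached 10 CPM were those of MT1X (Pearson r = 0.976), SNAI1 (0.967) and KHDRBS3 (0.965). MT1X, a metallothionein, ranged from 6.91 to 439.3 CPM between groups. The patterns most like that of GCLM were those of ID4 (0.977), DYNLL2 (0.947) and CCNG2 (0.945). The 8 points share fractions of the same lysates and the scaling of their libraries, and the values are descriptions.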

How the data were processed

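U2OS cytoplasm was profiled by rRNA-depleted, directional, paired-end RNA-seq in 24 libraries. The authors aligned reads with STAR 2.7.2b to GRCh38.p13 and counted uniquely mapped fragments per gene of GENCODE release 40 with featureCounts 1.5.3, without a strand option, and the deposited files hold these raw counts. Intron counts were made by the authors on genes minus all merged exons, with a minimum overlap of 25 bases. Tables of circular RNAs were not used here. Genes split over several lines of a table (1 in the exon and 21 in the intron table) were summed.

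Each table was scaled with TMM and fitted over all 24 libraries with edgeR 4.0.16 (R 4.3.3), with the 8 groups as terms, and tested with the quasi-likelihood test for 16 exon and 10 intron comparisons, leaving out genes whose mean was under 1 CPM. Adjusted p-values are Benjamini-Hochberg values over all genes of the table, and a call needed an adjusted p under 0.05 and a fold of 2. Values are log2 fold changes with their SE, and CPM per library. Groups came from the labels. The study's methods compared fractions as pairs and treatments unpaired. The labels number the replicates, and same-numbered libraries deviated together from their group means in all 3 pairs only between the insoluble NaAsO2 and Combo groups (r = 0.459, 0.381 and 0.666). The deviations of 3 libraries cancel within a group, and replicate 3 correlated least with its partners in both groups. The 3 values are therefore not separate evidence, and this check cannot decide whether the numbers pair these 2 groups. The main fits used no pairing. On counts simulated for soluble NaAsO2 against Ctrl over 17666 genes, 72 of 100 genes changed by log2 1.5 and 91 of 100 changed by 2 were called, with 4 unchanged genes. The precision of a value is set by the counts behind it and by 3 libraries per group. The 10 genes were named in every comparison, and from each further list up to 6 called genes with the smallest adjusted p. The members and lists were chosen with earlier results of these data known. The alternatives were size factors of DESeq2 1.42.0 (RLE) or library size in place of TMM, DESeq2, edgeR's likelihood ratio test, no filter, no fold limit, fits of the compared groups alone, the replicate number as a block, and each library left out. The comparison of the NaAsO2 effect with and without RK-33 on introns, and the fit without replicate 3 of both stressed insoluble groups, were chosen after seeing the data. Promoters came from RefSeq (GRCh38.p14).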

Additional observations from a re-analysis of the deposited data

Results flagged for a closer look

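Differences between effects were tested directly, and 15 of them passed the adjusted p (edgeR, interaction of 2 contrasts). The fraction effect differed between NaAsO2 and Ctrl for NQO1 (-0.86), GCLM (0.83) and TXNRD1 (0.54) on the log2 scale, so that NQO1 lay more to the soluble side and GCLM and TXNRD1 more to the pellet side after NaAsO2. These are 3 of 10 members, not far from the 22.3% of all genes that passed the adjusted p there.

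The NaAsO2 effect on exons differed with and without RK-33 for SLC7A11 in the soluble fraction (1.24) and for SLC7A11 (1.45), HMOX1 (0.77) and NQO1 (0.67) in the insoluble fraction. On introns it differed for SLC7A11 (1.22), SQSTM1 (1.10), GCLC (0.99) and OSGIN1 (0.82) in the soluble fraction, and for SLC7A11 (1.51), GCLC (1.14), OSGIN1 (1.01) and HMOX1 (-0.94) in the insoluble fraction. On exons these are 1 of 10 soluble and 3 of 10 insoluble, against 2.07% and 11.5% of all genes at the adjusted p. For introns they are 4 of 9 in each fraction, against 3.62% and 11.9% of all genes. Positive values are effects that were higher with RK-33, and HMOX1 introns alone had a negative value. Without NaAsO2 insoluble replicate 3 the insoluble values of SLC7A11 were 1.23 on exons and 1.17 on introns, and that of HMOX1 introns was -0.80 and no longer passed (adjusted p = 0.0679).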

How the results depend on the processing

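No called direction reversed under any setting, and the likelihood ratio test gave the same number of called members as the quasi-likelihood test in all 26 comparisons. Same-numbered soluble and insoluble libraries did not deviate together (r from -0.289 to 0.11, over 0.1 in 1 of 12 pairs), although each lysate gave both fractions and the study's methods compared them as pairs. Insoluble NaAsO2 and Combo libraries of the same number did deviate together, but that check cannot decide whether they were paired. The fit with a replicate block called as many members as the fit without it in all 26 comparisons. The block was the treatment and replicate number for comparisons of fractions, and the number over all groups for the others. It called, for example, 2 for NaAsO2 against Ctrl on exons in each fraction and 5 and 4 for Combo against RK-33 on introns. For insoluble Combo against NaAsO2 it called 0 on exons and 3 on introns. The block changed no call of a member, but a block common to all groups cannot take up a pairing that holds in only 2 of them. Of 12 libraries, 4 correlated best with their own number.

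Without the fold limit, exon comparisons of the fractions called 5 members in Ctrl, 5 after NaAsO2, 6 with RK-33 and 6 in Combo, against 51%, 57.8%, 59.6% and 52.2% of all genes. It called 1 for RK-33 against Ctrl, 2 for Combo against RK-33 and 1 for Combo against NaAsO2 in the soluble fraction (against 5.19%, 3.61% and 6.42%), and 6 for NaAsO2 against Ctrl, 2 for RK-33 against Ctrl, 4 for Combo against RK-33 and 2 for Combo against NaAsO2 in the insoluble fraction (against 43%, 13.9%, 7.32% and 13.7%). It called 3 for the shift between NaAsO2 and Ctrl (22.3%) and 3 for the insoluble exon effect with and without RK-33 (11.5%). On introns it called 2 for NaAsO2 against Ctrl, 2 for RK-33 against Ctrl, 5 for Combo against NaAsO2 and 4 for the effect with and without RK-33 in the soluble fraction (5.29%, 1.07%, 14.4% and 3.62%), and 5 for NaAsO2 against Ctrl and 8 for Combo against RK-33 in the insoluble fraction (31.3% and 29.8%).

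The fractions under RK-33 called 0 members with RLE factors, 0 with library size alone, 0 with DESeq2, 3 without the filter, 2 in the compared groups alone and 2 without replicate 3 of both stressed insoluble groups, where HMOX1 (-1.01) and NQO1 (-0.98) lay near the 2-fold limit and OSGIN1 (-0.94) passed it without the filter (-1.09). Soluble NaAsO2 against Ctrl called 1 with RLE, 1 with DESeq2 and 1 without the filter, since SLC7A11 then lay below 2-fold, and soluble Combo against NaAsO2 called 1 with library size alone and 1 in the compared groups alone, since HMOX1 then lay above it. Insoluble NaAsO2 against Ctrl called 1 in the compared groups alone and 1 without both replicates on exons, and 1 and 1 on introns, losing SRXN1 (1.36, adjusted p = 0.104, and 0.67) and NQO1 (1.19, adjusted p = 0.0753, and 0.65). The shift between NaAsO2 and Ctrl called 1 without the filter (SRXN1). GCLC introns were short of 2-fold for insoluble Combo against NaAsO2 with library size alone (0.96) and without both replicates (0.91), and for the insoluble effect without both (0.97). With library size alone, introns called 3 for soluble Combo against RK-33, GCLC lying at 0.98, 1 for insoluble RK-33 against Ctrl and 1 for the soluble effect with and without RK-33. That scaling moved the median of all genes by -0.15 for soluble NaAsO2 against Ctrl and by 0.18 at most, and it changed the split of genes called higher and lower, from 87 and 212 to 49 and 517 for soluble NaAsO2 against Ctrl on exons and from 1534 and 728 to 1086 and 1228 for soluble Combo against RK-33 on introns.

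Leaving out 1 library in turn gave 0 to 1 called members for the fractions in Ctrl, 0 to 3 with RK-33 and 1 to 2 in Combo. It gave 1 to 2 for soluble and 1 to 3 for insoluble NaAsO2 against Ctrl and 0 to 1 for soluble Combo against NaAsO2 on exons. On introns it gave 0 to 1 and 1 to 2 for RK-33 against Ctrl in the soluble and insoluble fraction, 1 to 3 for insoluble NaAsO2 against Ctrl, 5 to 6 and 4 to 5 for Combo against RK-33, 2 to 3 for insoluble Combo against NaAsO2, and 1 to 3 and 2 to 4 for the effect with and without RK-33. Calls gained but not named above were GCLC introns in insoluble Combo against RK-33 (1.0035 to 1.05, without NaAsO2 soluble 2, Combo insoluble 1 or 2 or RK-33 insoluble 1) and in the soluble effect with and without RK-33 (1.01 to 1.07, without NaAsO2 soluble 2, Combo soluble 1 or 2 or RK-33 soluble 1). The others were HMOX1 introns in the insoluble effect (-1.03 to -1.05, without NaAsO2 insoluble 2, Combo insoluble 1 or RK-33 insoluble 2), NQO1 introns in soluble Combo against RK-33 (1.10, without RK-33 soluble 3), OSGIN1 introns in insoluble Combo against RK-33 (1.10, without RK-33 insoluble 2) and SQSTM1 introns in insoluble NaAsO2 against Ctrl (1.06, without NaAsO2 insoluble 2).

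The counts over all genes behind the percentages moved more. They ran from 183 to 566 around 299 for soluble and 931 to 3710 around 2446 for insoluble NaAsO2 against Ctrl, from 43 to 182 around 89 for soluble RK-33 against Ctrl, from 19 to 1728 around 679 for insoluble Combo against NaAsO2, and from 0 to 218 around 26 for the shift between Combo and NaAsO2.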
